A study of Schizosaccharomyces pombe with 130 samples.

Results

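Polyadenylated (pA) RNA was set against total RNA in wild-type fission yeast (Schizosaccharomyces pombe). The libraries were chosen by their labels, as the wild-type samples whose label gives p(A) RNA or total RNA as the target, and these are 6 of the 130 samples of the series. The series measured RNA polymerase II on DNA, RNA bound to the polymerase, pA RNA and total RNA in wild type and in mutants of heterochromatin and RNA turnover. The pA RNA was captured with oligo(dT) beads, from 4 wild-type libraries: replicates 1, 3 and 4 of strain 63, which is h+ with untagged ago1, and replicate 2 of strain 65, which is h90 and carries natMX6::3xFLAG-ago1. Total RNA came from 2 wild-type libraries, replicates 2 and 3, both of strain 65. Both strains share a ura4+ reporter in the pericentromeric otr1R repeat, the ura4-DS/E deletion, leu1-32 and ade6-M210, and all cultures were grown in rich YES medium. Total RNA was extracted with hot phenol and treated with DNase I. How the total RNA libraries were made, and whether ribosomal RNA was depleted from them, is not given in the sources used here.

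Most mRNAs of a eukaryote end in a poly(A) tail, which is added after cleavage of the transcript and protects it from decay. Oligo(dT) capture retains RNAs with such a tail. Spliceosomal small nuclear RNAs (snRNAs), small nucleolar RNAs (snoRNAs), transfer RNAs and the RNA subunits of RNase P, RNase MRP and the signal recognition particle are processed at the 3′ end by other routes, and their mature forms carry no long tail. In the nucleus, the TRAMP complex can add short oligo(A) tails to RNAs that the exosome then trims or degrades. Meiotic mRNAs that contain the determinant of selective removal are bound by Mmi1 in growing cells, hyperadenylated and degraded.

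The deposited files gave a raw count for each of 7018 features. These were 5098 protein-coding genes, 1529 features with an SPNCRNA id (non-coding RNA genes), 53 with an SPSNORNA id, 7 with an SPSNRNA id, 12 SPMIT features and 25 tRNA genes of the mitochondrial genome, 171 nuclear tRNA genes, 49 SPRRNA features, 39 heterochromatic features, 28 pseudogenes and 7 others. The sequences below are those of snRNAs, snoRNAs and non-coding RNAs at both ends of the contrast, copied from the RefSeq assembly ASM294v3 and written 5′ to 3′. Capitals mark the longest run of A inside each RNA, because an internal run of A is what oligo(dT) could bind in an RNA without a tail.
snu1: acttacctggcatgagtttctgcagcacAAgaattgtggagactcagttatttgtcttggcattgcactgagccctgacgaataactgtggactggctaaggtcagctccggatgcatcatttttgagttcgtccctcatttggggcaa
snu2: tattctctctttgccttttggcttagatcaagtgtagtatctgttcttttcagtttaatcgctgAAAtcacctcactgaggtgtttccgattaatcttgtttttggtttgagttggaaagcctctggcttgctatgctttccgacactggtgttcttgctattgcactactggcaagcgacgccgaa
snu5: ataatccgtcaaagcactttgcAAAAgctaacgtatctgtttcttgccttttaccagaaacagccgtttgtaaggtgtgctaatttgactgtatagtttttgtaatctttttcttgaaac
snu6: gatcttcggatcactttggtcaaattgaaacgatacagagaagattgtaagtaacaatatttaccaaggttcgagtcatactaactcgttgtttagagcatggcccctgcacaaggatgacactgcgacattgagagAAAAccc
snR3: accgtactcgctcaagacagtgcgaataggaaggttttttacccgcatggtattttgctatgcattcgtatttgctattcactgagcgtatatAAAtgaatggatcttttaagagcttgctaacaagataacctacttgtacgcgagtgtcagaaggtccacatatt
snR97: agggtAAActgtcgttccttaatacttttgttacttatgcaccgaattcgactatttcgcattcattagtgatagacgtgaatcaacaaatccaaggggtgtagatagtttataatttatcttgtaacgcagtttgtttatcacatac
SPNCRNA.942: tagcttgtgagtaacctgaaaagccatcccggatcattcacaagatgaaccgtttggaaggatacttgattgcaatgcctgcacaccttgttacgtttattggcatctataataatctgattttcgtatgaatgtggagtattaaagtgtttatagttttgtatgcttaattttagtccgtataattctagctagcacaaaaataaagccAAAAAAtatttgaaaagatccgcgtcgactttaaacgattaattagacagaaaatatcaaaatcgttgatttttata
SPNCRNA.808: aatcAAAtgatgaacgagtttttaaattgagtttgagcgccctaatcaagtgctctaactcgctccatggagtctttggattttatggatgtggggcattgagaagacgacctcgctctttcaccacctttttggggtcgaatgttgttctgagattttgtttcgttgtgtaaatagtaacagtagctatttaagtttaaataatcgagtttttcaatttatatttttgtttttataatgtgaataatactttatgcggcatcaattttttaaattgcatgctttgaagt
The first RNA, snu1, is the U1 snRNA that pairs with the 5′ splice site, at chrII:3020205-3020353 on the + strand of ASM294v3, and its longest run holds 2 A. U2, which pairs with the branch point, is encoded by snu2 at chrI:959370-959556 on the - strand, with a run of 3. U5 and U6, which act at the catalytic centre, come from snu5 at chrII:3236867-3236986 (+ strand) and snu6 at chrI:2562276-2562419 (- strand), with runs of 4 each. The snu6 gene is 144 bp long and has an intron, and its deposited transcript length is 102 nt. The box H/ACA snoRNA snR3 lies at chrII:884166-884332 (- strand), and snR97, of the same class, at chrI:170709-170856 (+ strand), each with a run of 3. SPNCRNA.942 lies at chrI:3851024-3851310 (+ strand) with a run of 6, and SPNCRNA.808 at chrI:2265549-2265838 (- strand) with a run of 3. No run in the shown RNAs exceeded 6 A.

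The pA libraries held 17771761, 16326512, 15101602 and 13303953 counts on features (replicates 1 to 4), and the total RNA libraries 2023228 (replicate 2) and 6703361 (replicate 3). No 2 of the 171 library pairs compared were identical. The total RNA libraries stood apart from each other. Over protein-coding genes, the Spearman correlation of log2(TPM + 1) was 0.888 to 0.984 among the pA libraries, 0.771 to 0.917 between total RNA replicate 3 and the pA libraries, 0.628 to 0.75 between total RNA replicate 2 and the pA libraries, and 0.8 between the 2 total RNA libraries. Of 4986 protein-coding genes tested, 155 were over 8-fold higher in total RNA replicate 2 than in replicate 3, and 9 were over 8-fold higher in replicate 3. Counts of single mRNAs are therefore given for each library, and calls are given with and without total RNA replicate 2. Strain and fraction also overlap in wild type, since strain 63 occurs in pA RNA alone. With strain as a term in the fit, no feature was called by edgeR, and 166 were higher and 301 lower at an unadjusted p under 0.05. pA replicate 2 shares its strain with both total RNA libraries, and in caf1Δ, ago1Δ and the libraries labelled clr4Δ, whose clr4 level does not show the deletion, both fractions came from 1 strain each.

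The question asked of these libraries was which RNAs are low or high in pA RNA relative to total RNA. Raw counts, scaled by TMM factors, went into the quasi-likelihood test of edgeR (two-sided). Of all features, 6371 reached the minimum of 10 counts in 2 or more of the 6 libraries, and a feature was called where its p, adjusted by Benjamini-Hochberg over all of them, was under 0.05. In pA RNA 327 features were lower (5.13% of those tested) and 77 were higher (1.21%), 6.34% in all. The values are relative within a library, and a log2 fold change of 0 lies near the median of all features, which was -0.06. Absolute amounts of RNA per cell were not measured. Scaling by library size alone, without the TMM factor, moved that median to 0.76. Nothing in the labels states that replicates came from separate cultures, so p-values measure the spread between these samples.

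Non-coding RNA classes made up a small share of pA RNA counts and a much larger share of total RNA counts. Shares are of the counts on features, after the authors had removed reads on ribosomal RNA, and not of all RNA in the cell. Protein-coding genes held 97.6 ± 0.472% of counts in pA RNA (SD, n = 4) and 83.7 ± 10.3% in total RNA (SD, n = 2). By library, these shares were 98.1%, 97.6%, 97.6% and 97.0% in pA RNA, against 76.4% and 91.0% in total RNA. SPSNRNA features held 0.000751 ± 0.000563% in pA RNA and 1.87 ± 1.53% in total RNA, a ratio of means of 2500. SPSNORNA features held 0.0175 ± 0.01% of counts in pA RNA and 2.37 ± 1.94% in total RNA, and SPMIT features 0.00272 ± 0.000712% in pA RNA and 1.80 ± 0.204% in total RNA. The SPNCRNA share was 2.23 ± 0.418% in pA RNA and 10.0 ± 6.94% in total RNA. The pA and total RNA libraries did not overlap in any of these classes. Counting error was small beside this spread: the largest half-width of a 95% Clopper-Pearson interval of a library's share was 0.0585 percentage points, for protein-coding genes. Such intervals, like the bounds given further on, cover counting error only, as reads carry no molecular identifiers.

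**Figure D1:**
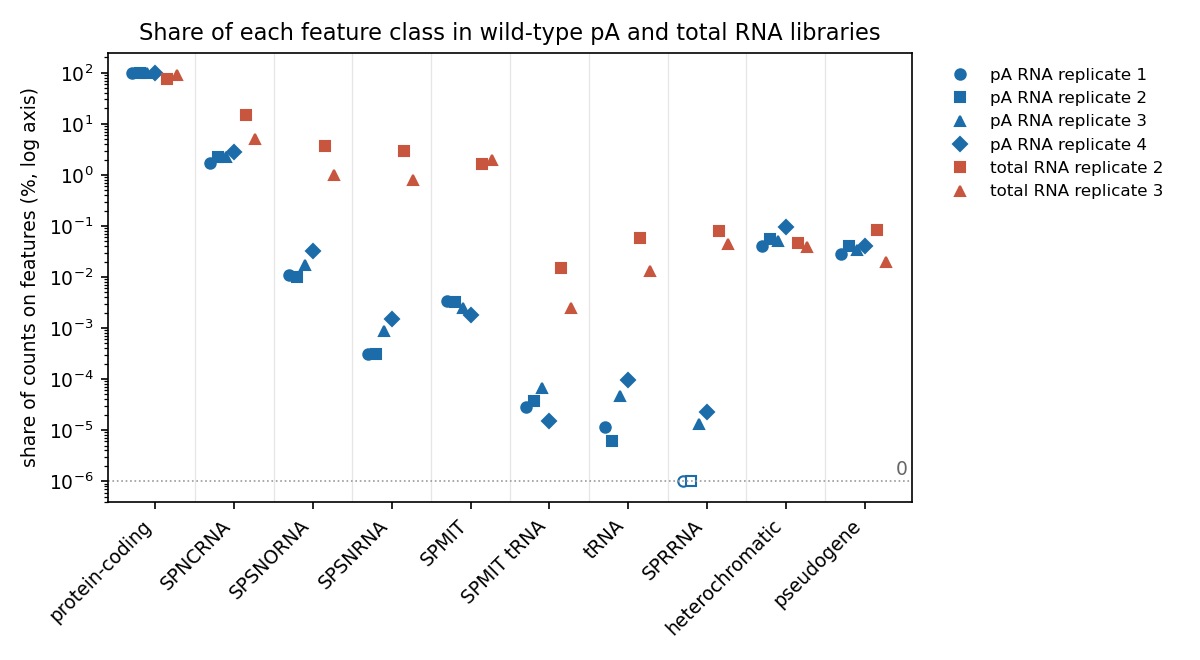
Share of counts (%, log axis) held by each feature class in the 4 wild-type pA RNA libraries (blue) and the 2 wild-type total RNA libraries (red), 1 point per library, with open points at the dotted line for a share of 0. The pA points lie below both total RNA points from SPNCRNA to SPRRNA, with SPSNRNA means of 0.000751% and 1.87%, and above them for protein-coding genes.

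With 4 against 2 libraries an exact permutation test has 15 arrangements, and each of these class differences reached the smallest p it allows, 0.0667 (two-sided). Permuting within the 4 genotypes wt, caf1Δ, ago1Δ and labelled clr4Δ gave 5400 arrangements. For protein-coding, SPNCRNA, SPSNORNA, SPSNRNA, SPMIT, SPMIT tRNA, tRNA and SPRRNA features the exact permutation p was 0.000185, the smallest possible, and 0.000255 after Benjamini-Hochberg adjustment over 11 classes. In all 6 total RNA libraries of the mutants, the share of each of the 7 classes other than protein-coding among these was above that of every mutant pA library. Heterochromatic features held 0.0602 ± 0.0237% of counts in pA RNA and 0.042 ± 0.00484% in total RNA in wild type (difference 0.0183 percentage points, exact permutation p = 0.467). Over the 4 genotypes the difference was 0.100 points and did not pass as a share of counts (exact permutation adjusted p = 0.147), while it passed as a share of TPM (0.0945 points, exact permutation adjusted p = 0.0053). One RNA accounted for much of the SPNCRNA share. srp7, the RNA of the signal recognition particle that docks ribosomes at the endoplasmic reticulum, held 0.000276%, 0.000245%, 0.000828% and 0.000722% of counts in pA RNA (replicates 1 to 4; 95% Clopper-Pearson limits 0.000175% to 0.000986% over these libraries), against 8.05% (8.01% to 8.09%) and 2.40% (2.39% to 2.41%) in total RNA. Without srp7, rrk1 and mrp1 the SPNCRNA share was 1.73%, 2.20%, 2.23% and 2.75% in pA RNA, against 5.65% and 2.50% in total RNA. Total RNA replicate 3 then lay inside the range of the pA libraries.

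The classes differed widely in how many of their tested features were called. In pA RNA 10 of 11 SPMIT features, 18 of 40 SPSNORNA features and 6 of 6 SPSNRNA features were lower, against 5.13% of all features. The 10 nuclear tRNA genes, 4 mitochondrial tRNA genes and 2 SPRRNA features tested were lower too, but no pA library reached the count minimum in any of them. They entered the test only through total RNA, which fixed their direction, so nothing is read from these counts. The same held for snu1, snu2 and snu5, while 3 SPSNRNA features, 35 snoRNAs and 10 SPMIT features reached the minimum in at least 2 pA libraries, and of these 3, 15 and 9 were lower. Of 1261 SPNCRNA features 56 were lower (4.44%) and 3 higher (0.238%), and of 4986 protein-coding genes 219 were lower (4.39%) and 74 higher (1.48%), both near or under the share over all features. The median log2 fold change was -13.09 for SPSNRNA, -3.12 for SPSNORNA, -6.39 for SPMIT, -0.21 for SPNCRNA and -0.01 for protein-coding features. The SPSNRNA median includes snu1, snu2 and snu5. The 25 heterochromatic features tested held no call by edgeR, with 3 at an unadjusted p under 0.05 and 1 lower by DESeq2. When each of the 6 libraries was left out in turn, 51 features stayed lower in every fit: 15 SPNCRNA, 11 SPSNORNA, 7 protein-coding, 6 SPSNRNA, 5 SPMIT, 3 tRNA, 2 mitochondrial tRNA and 2 SPRRNA features. None stayed higher. Without total RNA replicate 2, 66 features were lower (1.04%) and none higher, with 422 higher at an unadjusted p under 0.05. Without total RNA replicate 3, 800 were lower (12.6%) and 276 higher (4.33%), 16.9% in all.

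**Figure D2:**
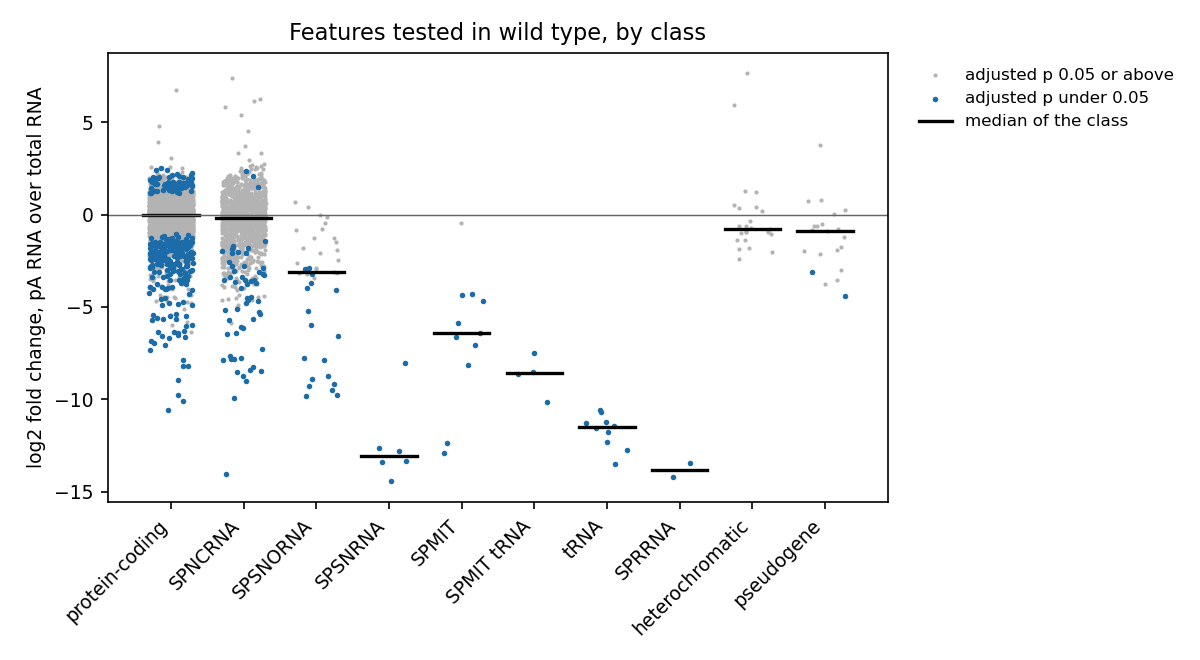
Fitted log2 fold change of pA RNA over total RNA (y axis) for each tested feature of 10 classes (x axis), with features called at an adjusted p under 0.05 in blue, others in grey and the class median as a black line. The medians run from -0.01 for protein-coding genes to -13.09 for SPSNRNA and -13.84 for the 2 SPRRNA features, and the calls above 0 lie among protein-coding and SPNCRNA features.

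The snRNAs were nearly missing from pA RNA. snu1 had 2, 0, 4 and 5 counts in pA RNA, against 8794 and 5296 in total RNA, although every pA library was deeper than both total RNA libraries. The 2 fractions did not come near each other, and the fitted log2 fold change was -14.44. As snu1, snu2 and snu5 entered the test only through total RNA, their counts are described and no p-value is given. snu2 had 4, 1, 5 and 7 counts in pA RNA, against 6673 and 2571 in total RNA, a fitted log2 fold change of -13.34. snu5 had no count in any pA library, against 141 and 117 counts in total RNA. With 3 counts per pA library as the floor and TMM-scaled counts per 1000000 (CPM), this made U5 at least 374-fold lower in pA RNA. Values printed in CPM further on are scaled by library size alone. Whether the fractions lay apart in CPM was judged on TMM-scaled values. Its level in total RNA was well under that of U1 and U2, which stood at 21600 and 5820 TPM (U1) and 13100 and 2250 TPM (U2) in the 2 total RNA libraries.

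U6 was the snRNA with the most counts in pA RNA relative to total RNA. snu6 had 17, 6, 84 and 125 counts in pA RNA, against 1656 and 2571 in total RNA, and a log2 fold change of -8.02 (SE 1.10, edgeR adjusted p = 0.00755). Its pA counts in replicates 3 and 4 were higher than in replicates 1 and 2, both in counts and in CPM, while the fractions stayed far apart. U6 differs from the other spliceosomal RNAs in being made by RNA polymerase III and in ending in a run of U. The snu6 sequence shown above, of 144 nt against a deposited gene length of 152, ends in ccc and does not hold that run. U4, which pairs with U6 before the spliceosome is activated, could not be compared, since snu4 had 1, 1, 3 and 7 counts in pA RNA and 2 and 0 in total RNA and was not tested. Both genes of the U3 snoRNA, which guides cleavage of the ribosomal RNA precursor, behaved like U1 and U2. snu3 had 15, 14, 8 and 14 counts in pA RNA, against 16035 and 18640 in total RNA (log2 fold change -13.40, SE 0.77, edgeR adjusted p = 1.28e-04), and snu32 had 17, 28, 31 and 40 counts, against 26482 and 24099 (-12.83, SE 0.90, edgeR adjusted p = 3.86e-04).

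Other structured RNAs with an enzymatic or targeting role were also lower in pA RNA. srp7 had 49, 40, 125 and 96 counts in pA RNA, against 162862 and 160828 in total RNA, and a log2 fold change of -14.07 (SE 1.25, edgeR adjusted p = 0.00119). mrp1, the RNA of RNase MRP, had 130, 76, 103 and 230 counts in pA RNA, against 17232 and 12534 in total RNA (-9.91, SE 0.89, edgeR adjusted p = 0.00119). rrk1, the RNA of RNase P, which trims the 5′ end of tRNA precursors, had 178, 170, 274 and 432 counts in pA RNA, against 8168 and 4015 in total RNA (-7.76, SE 0.84, edgeR adjusted p = 0.00248). These 3 RNAs kept their order with -13.16, -8.67 and -6.06 when total RNA replicate 2 was left out. ter1, the telomerase RNA, is cut from a longer polyadenylated precursor by the spliceosome in this species. It had 219, 260, 404 and 331 counts in pA RNA, against 576 and 574 in total RNA, and its log2 fold change of -3.97 (SE 0.45, edgeR adjusted p = 0.003) was the least negative of the 10 structured RNAs tested. Of those 10, of which snu1, snu2 and snu5 were tested through total RNA alone, all were lower in pA RNA in wild type, without total RNA replicate 2 and without replicate 3, with medians of -12.74, -11.57 and -13.44.

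sme2 (meiRNA), a polyadenylated non-coding RNA that sequesters Mmi1 in meiosis, gives the contrast within the SPNCRNA ids. It had 270, 251, 480 and 373 counts in pA RNA, against 94 and 26 in total RNA. Its level was 13.1, 13.2, 24.7 and 20.6 TPM in pA RNA, against 22.1 and 2.73 TPM in total RNA. The fractions overlapped, and it was not called (log2 fold change -0.83, SE 0.74, edgeR adjusted p = 0.466; 1.57 without total RNA replicate 2). act1, the actin mRNA, had 60581, 58086, 67320 and 61156 counts in pA RNA, against 5064 and 28003 in total RNA, and was not called (-0.60, SE 0.54, edgeR adjusted p = 0.47; 0.26 under scaling by library size alone).

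**Figure D3:**
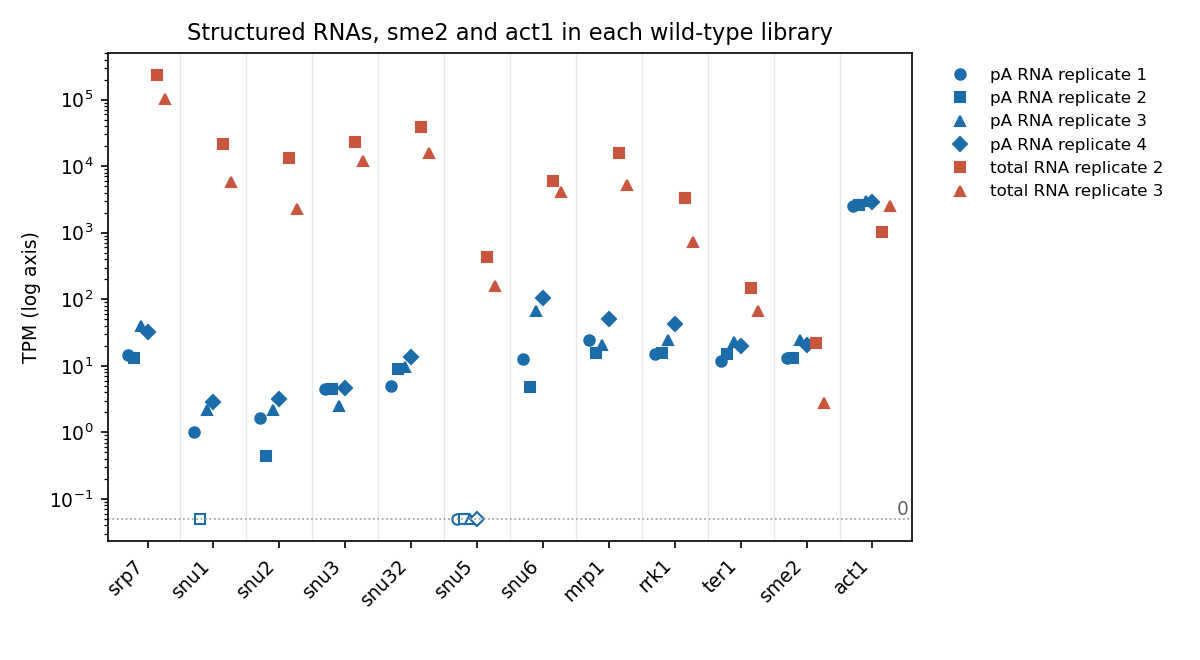
TPM (log axis) of 10 structured RNAs, sme2 and act1 in the 4 pA RNA libraries (blue) and the 2 total RNA libraries (red), 1 point per library, with open points at the dotted line for 0 counts. srp7, the snRNAs, both U3 genes, mrp1 and rrk1 are separated by more than a factor of 10 between fractions, ter1 by less, sme2 overlaps between 2.73 and 24.7 TPM, and act1 nearly meets.

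The snoRNAs fell into a wide range. snoRNAs guide chemical modification and cleavage of ribosomal RNA, and the box H/ACA kind directs pseudouridylation. The lowest 3 were snR3, snR92 and sno12, which RefSeq names as box H/ACA. snR3 had 6, 3, 17 and 30 counts in pA RNA, against 1896 and 668 in total RNA (log2 fold change -9.80, SE 1.11, edgeR adjusted p = 0.003). snR92 had 5, 3, 21 and 47 counts, against 2106 and 2082 (-9.77, SE 1.11, edgeR adjusted p = 0.00307). sno12 had 155, 72, 116 and 236 counts, against 12870 and 12690 (-9.50, SE 0.81, edgeR adjusted p = 0.00109). In each of them replicates 3 and 4 of pA RNA, or replicate 4 alone, were the highest of the pA libraries, and all pA values lay far below total RNA.

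The 3 snoRNAs at the other end were not called. snR97 had 64, 56, 41 and 44 counts in pA RNA, against 2 and 8 in total RNA (log2 fold change 0.70, SE 0.65, edgeR adjusted p = 0.484), and its pA libraries lay above both total RNA libraries in CPM. As snR97 reached the count minimum in pA RNA alone, this position is only described. Among the 40 snoRNAs tested, it was the only one to do so, and 26 lay below, against 21.6% above and 17.5% below over all features. Of these 40 snoRNAs 14, and of all 6371 features 888, reached the count minimum in fewer than 2 total RNA libraries. The share of 21.6% above thus includes features selected through pA RNA. snR90 had 89, 49, 152 and 280 counts, against 14 and 14 (0.40, SE 0.86, edgeR adjusted p = 0.768), and snR51b 81, 60, 87 and 120, against 4 and 27 (0.00, SE 0.60, edgeR adjusted p = 0.999). Their counts in total RNA, at 2 to 27, were far under those of the lowest 3. snR97 overlaps rad8-antisense-1 on the same strand and snR51b overlaps SPNCRNA.723, so that part of their counts could come from those transcripts. Of the 40 snoRNAs tested, 18 overlap another feature on the same strand, and 7 of these were lower in pA RNA with a median of -3.08. Of the 22 without such an overlap 11 were lower, with a median of -3.12.

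The strongly depleted snoRNAs were mostly of the H/ACA kind and mostly long. Among 16 snoRNAs that RefSeq names box H/ACA, of 143 to 273 nt, 9 were lower in pA RNA and 8 had a log2 fold change under -7, with a median of -5.87. Among the other 24, of 75 to 326 nt, 9 were lower and 1 was under -7, with a median of -2.93. That one was snR30, which is needed for 18S rRNA processing and is itself an H/ACA RNA in budding yeast, with 312, 342, 524 and 678 counts in pA RNA, against 35108 and 29120 in total RNA (-9.20, SE 0.85, edgeR adjusted p = 0.00124). The 20 snoRNAs longer than the median of 104 nt held 99.3% and 99.1% of snoRNA counts in the 2 total RNA libraries. The 20 shorter ones held 502 and 571 counts there, and 6 of them were lower in pA RNA, against 12 of the longer ones. The longest run of A within a snoRNA was 2 to 7 nt with a median of 3. Across the 40 snoRNAs, which are not independent replicates, its Spearman correlation with the log2 fold change was -0.1, and that of length was -0.2. The groupings by kind and by A run were made after the values were seen and carry no test.

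Few other RNAs without a tail had enough counts to be compared. SPATRNAILE.02, an isoleucine tRNA gene at chrI:2578426-2578524, had no count in the 4 pA libraries, against 212 and 320 counts in total RNA, and was at least 670-fold lower in pA RNA. Of 171 nuclear tRNA genes, 10 reached the count minimum, all through total RNA alone, and none of them had a pA count. Their bounds ran from 90.8-fold to 670-fold lower, as a description of the genes that total RNA selected. The 2 SPRRNA features tested encode 5S rRNA. SPRRNA.15 had 0, 0, 1 and 3 counts in pA RNA, against 1255 and 2558 in total RNA, and SPRRNA.35 none, against 386 and 434. Other ribosomal RNA was removed by the authors before counting.

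Mitochondrial transcripts, which are made by a separate polymerase and processed at tRNA ends, were lower in pA RNA of wild type with 1 exception. cob1, which encodes cytochrome b, had 55, 35, 53 and 45 counts in pA RNA, against 15813 and 67331 in total RNA (log2 fold change -12.36, SE 0.73, edgeR adjusted p = 1.28e-04). SPMIT.06 had 39, 22, 30 and 25 counts, against 14208 and 61147 (-12.91, SE 0.74, edgeR adjusted p = 1.28e-04). In CPM, scaled by library size alone, cob1 stood at 7820 and 10000 and SPMIT.06 at 7020 and 9120 in the 2 total RNA libraries. cox1, cox2 and cox3, for cytochrome c oxidase subunits, also fell in pA RNA, with log2 fold changes of -6.39, -8.12 and -7.05. cox2 stood at 1.63, 1.04, 1.46 and 1.65 CPM in pA RNA, against 473 and 31.6 in total RNA. var1, for a small-subunit ribosomal protein, was the exception, with 119, 146, 45 and 12 counts in pA RNA, against 16 and 7 in total RNA (-0.46, SE 1.04, edgeR adjusted p = 0.777; 1.30 without total RNA replicate 2). In the 13 mutant libraries var1 was called lower (-4.87, edgeR adjusted p = 0.0106). Its value there was -5.93 with total RNA replicate 1 alone and -1.26, not called, with replicate 2 alone.

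The total RNA libraries differed in which mitochondrial RNAs they held. In total RNA replicate 1 of caf1Δ, ago1Δ and the libraries labelled clr4Δ, cox1 stood at 15000, 11700 and 13200 CPM, against 480, 233 and 1100 in replicate 2 of those mutants and 708 and 155 in wild-type total RNA. cob1 lay between 7820 and 16100 in all 8 total RNA libraries, and SPMIT.06 between 7020 and 11900. cob1 has a deposited gene length of 3690 and a transcript length of 1164, against 2424 for SPMIT.06. In the mutants cob1 and SPMIT.06 stood at 16100 and 9190, 14500 and 9000, and 15300 and 8860 in total RNA replicate 1. In replicate 2 they stood at 13200 and 11900, 9830 and 8870, and 9710 and 8710. Whether these 2 features share reads was not tested. In the pA libraries of the 4 genotypes cox1 was between 4.14 and 20.4 and cob1 between 1.49 and 7.76. The size of the mitochondrial difference thus varied with the total RNA library, and its direction did not for cox1 and cob1. What set the libraries apart was not tested.

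Of 1261 SPNCRNA features tested, 56 were called lower and 3 higher by edgeR, and 231 were lower and 69 higher at an unadjusted p under 0.05 (175 and 27 called by DESeq2). This balance depended on total RNA replicate 2, without which 57 were lower and 57 higher at an unadjusted p under 0.05 and the median was 0.59. In CPM, all pA libraries lay below both total RNA libraries in 127 of these 1261 features and above them in 163. Over all features tested, 17.5% lay below and 21.6% above. Of the 1261, 640 reached the count minimum in fewer than 2 total RNA libraries. Of the 56 lower features, the 6 named by the rule for large and separated changes were srp7, mrp1, SPNCRNA.507, SPNCRNA.514, SPNCRNA.515 and SPNCRNA.942. SPNCRNA.942 had 235, 91, 314 and 722 counts in pA RNA, against 15196 and 15450 in total RNA (log2 fold change -8.48, SE 0.99, edgeR adjusted p = 0.00345). SPNCRNA.507 had 37, 30, 190 and 231 counts, against 7000 and 9888 (-8.99, SE 1.06, edgeR adjusted p = 0.00345). SPNCRNA.514 and SPNCRNA.515 had at most 15 counts in a pA library, against 106 to 355 in total RNA. Both reached the count minimum in fewer than 2 pA libraries and so entered the test through total RNA. Of the 1261 features, 22 reached it in fewer than 2 pA libraries, and 5 of these were called lower. In SPNCRNA.942, SPNCRNA.507, SPNCRNA.514 and SPNCRNA.515 the fractions lay far apart, and the pA counts were highest in replicates 3 and 4. SPNCRNA.808, named here after its values were seen, had 146, 146, 298 and 407 counts in pA RNA, against 8088 and 12626 in total RNA (-8.24, SE 0.72, edgeR adjusted p = 0.00119). Its sequence is among those shown above.

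Of the 56 lower SPNCRNA features, 45 have a position in the reference annotation, 18 are named as antisense to a gene, 11 overlap a protein-coding gene on the same strand and 5 another SPNCRNA feature. None overlaps a separate feature annotated as snoRNA, snRNA, tRNA or rRNA on the same strand. Some of the 56 carry snoRNA names themselves: snR191 (log2 fold change -6.13), which overlaps nog2 on the same strand, and sno530 (-3.63). No same-strand overlap is listed for 41, features without a position included. SPNCRNA.491 overlaps ctp1-antisense-1 (log2 fold changes -8.40 and -7.88). Reads that cover both cannot be told apart. The 3 higher SPNCRNA features were SPNCRNA.291 (log2 fold change 2.38), SPNCRNA.1200 (2.09) and SPNCRNA.438 (1.47). SPNCRNA.291 had 679, 863, 1077 and 1136 counts in pA RNA, against 13 and 45 in total RNA (SE 0.42, edgeR adjusted p = 0.0268), and none of the 3 was called without total RNA replicate 2.

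By kind of SPNCRNA name, 18 of 596 antisense features were lower and none was higher (3.02% lower, against 5.13% of all features), with 129 at an unadjusted p under 0.05 and a median of -0.37. That median was 0.56 without total RNA replicate 2. Of 603 features unnamed in the deposited files 30 were lower (4.98%) and 3 higher (0.498%, against 1.21% of all features), with a median of 0.08. They include sno530, which has its name from RefSeq alone. Of 20 with other names, which include srp7, mrp1, rrk1, ter1 and snR191, 7 were lower (median -1.38). The prl RNAs were first described as polyadenylated transcripts without a long open reading frame. Of the 42 prl RNAs tested 1 was lower (2.38%) and none higher, with 6 at an unadjusted p under 0.05, and their median was -0.19. The lower one, prl14, had 5, 22, 15 and 9 counts in pA RNA, against 58 and 4 in total RNA (log2 fold change -4.78, SE 1.13, edgeR adjusted p = 0.0486), and its value without total RNA replicate 2 was -0.50.

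Among protein-coding genes, 7 stayed lower in pA RNA whichever library was left out. They were ssd1, SPAC17A2.10c, mug8, clg1, mei4, gpd3 and trm44. All but gpd3 and mei4 are named here after their values were seen. clg1, which encodes a cyclin-like protein, had 2941, 3558, 3098 and 2080 counts in pA RNA, against 2298 and 6480 in total RNA (log2 fold change -3.31, SE 0.37, edgeR adjusted p = 0.00284). trm44, a tRNA methyltransferase gene, had 4466, 3934, 4871 and 4285 counts, against 6914 and 7436 (-3.75, SE 0.49, edgeR adjusted p = 0.00607). ssd1 had 776, 727, 541 and 474 counts, against 360 and 550 (-2.46, SE 0.31, edgeR adjusted p = 0.0052). In these 3 genes the pA libraries lay close together, and both total RNA libraries lay above them in CPM.

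gpd3, a glyceraldehyde-3-phosphate dehydrogenase gene, had 2252, 916, 676 and 847 counts in pA RNA, against 7649 and 4850 in total RNA. Both total RNA libraries lay above all pA libraries in CPM, and the log2 fold change was -5.64 (SE 0.73, edgeR adjusted p = 0.00579; -4.24 without total RNA replicate 2). Of the 15 glycolytic genes listed, 3 were lower and none was higher (20.0% against 5.13% of all features), with a median of -2.19. The list had 1 lower gene and a median of -2.70 without total RNA replicate 2, and 2 and -1.30 without replicate 3, and DESeq2 called 14 lower. The other called genes were the enolases eno101, with 69277, 46986, 21087 and 26760 counts in pA RNA, against 13985 and 121477 in total RNA (-3.16, edgeR adjusted p = 0.0479), and eno102. All 15 had a negative log2 fold change and in 13 all pA libraries lay below both total RNA libraries in TMM-scaled CPM, as in 17.5% of all features. The pA libraries spread widely here, with replicates 3 and 4 under replicates 1 and 2 for fba1 and pyk1. In the mutants, the glycolytic median was -0.30 with total RNA replicate 1 alone (no call by edgeR, 2 at an unadjusted p under 0.05) and -2.01 with replicate 2 alone (15 of 15 lower, where 27.5% of all features were).

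In all 7 meiotic mRNAs bound by Mmi1 the pA libraries lay below both total RNA libraries in TMM-scaled CPM, as in 17.5% of all features. rec8, a meiotic cohesin subunit, had 23, 41, 24 and 25 counts in pA RNA, against 33 and 64 in total RNA (log2 fold change -3.60, SE 0.51, edgeR adjusted p = 0.00919). mei4, a transcription factor of meiosis, had 105, 88, 45 and 67 counts, against 90 and 153 (-3.55, SE 0.44, edgeR adjusted p = 0.00503). mei4 overlaps cdk9 on the same strand. mcp7 (-2.31) and num1 (-1.78) were also lower, so that 4 of 7 were called, against 5.13% of all features, with a median of -1.85. spo5, crs1 and ssm4 had log2 fold changes of -1.85, -1.48 and -1.38 and were not called (edgeR adjusted p = 0.0952, 0.151 and 0.0869). Without total RNA replicate 2, rec8 (-3.35) and mei4 (-3.18) were called. In the 13 mutant libraries 6 of the 7 were lower, where 20.5% of all features were, with a median of -1.98, and ssm4 was not called (-0.74, edgeR adjusted p = 0.104).

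Of 141 cytoplasmic ribosomal protein genes 10 were lower (7.09%, against 5.13% of all features) and none higher, with 45 at an unadjusted p under 0.05, 37 lower by DESeq2 and a median of -0.81. rps1002 had 3932, 2547, 1843 and 2217 counts in pA RNA, against 899 and 7555 in total RNA (log2 fold change -3.11, SE 0.51, edgeR adjusted p = 0.0187), and rpl13 had 17828, 11217, 6754 and 7534, against 3533 and 24900 (-2.86, SE 0.57, edgeR adjusted p = 0.0347). The list had 7 lower genes and a median of -1.35 without total RNA replicate 2, and 6 and -0.13 without replicate 3. In the mutants the median was 0.11 with total RNA replicate 1 alone and -1.03 with replicate 2 alone, so that its sign depended on the total RNA library. Of 38 mitochondrial ribosomal protein genes, which are encoded in the nucleus, 3 were higher (7.89%, against 1.21% of all features) and 1 lower, with a median of 0.65. mrpl25 had 1808, 1702, 2730 and 3503 counts in pA RNA, against 42 and 154 in total RNA (2.04, SE 0.46, edgeR adjusted p = 0.044). In 22 of the 38 all pA libraries lay above both total RNA libraries, against 21.6% of all features. The list's median was 0.40 without total RNA replicate 2, 0.93 without replicate 3 and 0.33 in the 13 mutant libraries. The difference between these 2 lists was not tested.

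Histone and amino acid biosynthesis genes held no call. Histone mRNAs lack a poly(A) tail in animals, while those of yeasts carry one. Among the 11 histone genes, 5 were at an unadjusted p under 0.05 by edgeR, DESeq2 called 1 higher and 2 lower, and the log2 fold changes ran from -1.93 for hht2 to 1.57 for hhf1, with a median of -0.60 that was 0.18 without total RNA replicate 2. hhf1 had 12659, 15259, 27540 and 36430 counts in pA RNA, against 697 and 1655 in total RNA (SE 0.62, edgeR adjusted p = 0.13). Among the 23 amino acid biosynthesis genes, 7 were at an unadjusted p under 0.05, DESeq2 called 6 lower, and the median was -0.61. That median was -1.03 without total RNA replicate 2 and -0.07 without replicate 3, and in the 13 mutant libraries 13 of the 23 were lower, where 20.5% of all features were.

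The largest negative values among mRNAs rested on total RNA replicate 2. By the rule the 10 lower genes with the largest separated changes were pdc201, lsd90, eno102, gld1, psu2, mel1, gpd3, SPAC4H3.03c, fmd2 and SPCC63.13. pdc201, a pyruvate decarboxylase gene, had 211, 111, 86 and 66 counts in pA RNA, against 5546 and 79 in total RNA (log2 fold change -8.20, SE 1.48, edgeR adjusted p = 0.0276; -1.61 without total RNA replicate 2). gld1, for glycerol dehydrogenase, had 174, 477, 63 and 65 counts, against 3038 and 137. Of these 10, gpd3 alone was called without total RNA replicate 2. hsp16, a small heat shock protein gene, had 497, 1098, 735 and 842 counts in pA RNA, against 11731 and 105 in total RNA, and its log2 fold change of -6.50 (edgeR adjusted p = 0.0439) became 0.76 without that library. ddr48, fbp1 and hry1, chosen after their values were seen, showed the same pattern, such as 2, 1, 17 and 14 counts of hry1 in pA RNA, against 2262 and 1 in total RNA. Of the 219 protein-coding genes called lower, 49 were over 8-fold higher in total RNA replicate 2 than in replicate 3, and in 27 replicate 3 lay within or below the pA range. Of 10 heat shock and chaperone genes 2 were lower, against 5.13% of all features, and none was without total RNA replicate 2, where 1.04% of all features were (3 lower and 1 higher at an unadjusted p under 0.05 by edgeR).

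The 74 protein-coding genes higher in pA RNA changed by smaller amounts. Of the 4986 protein-coding genes tested, 212 reached the count minimum in fewer than 2 total RNA libraries, mug125 (3 and 23 counts) among them. All met the rule for separated changes, and the 10 with the largest were cti1, mug125, cms1, grp2, SPBC14F5.01, csm1, sus1, dpb4, spf31 and SPBC365.04c, with log2 fold changes of 2.06 to 2.53. cti1 had 2463, 2047, 4332 and 5385 counts in pA RNA, against 69 and 98 in total RNA (2.53, SE 0.58, edgeR adjusted p = 0.0457). csm1, a subunit of the monopolin complex at meiotic kinetochores, had 1030, 1176, 1283 and 1409 counts, against 16 and 77 (2.16, SE 0.39, edgeR adjusted p = 0.0268). sus1, shared by the SAGA and mRNA export complexes, had 839, 923, 1382 and 1738 counts, against 14 and 83 (2.15, SE 0.52, edgeR adjusted p = 0.0496). Without total RNA replicate 2 no feature was called higher by edgeR, although 422 were higher at an unadjusted p under 0.05, and cti1, csm1 and sus1 kept their direction in every leave-one-out fit, at 2.11 to 3.05, 1.84 to 2.66 and 1.74 to 2.86.

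**Figure D4:**
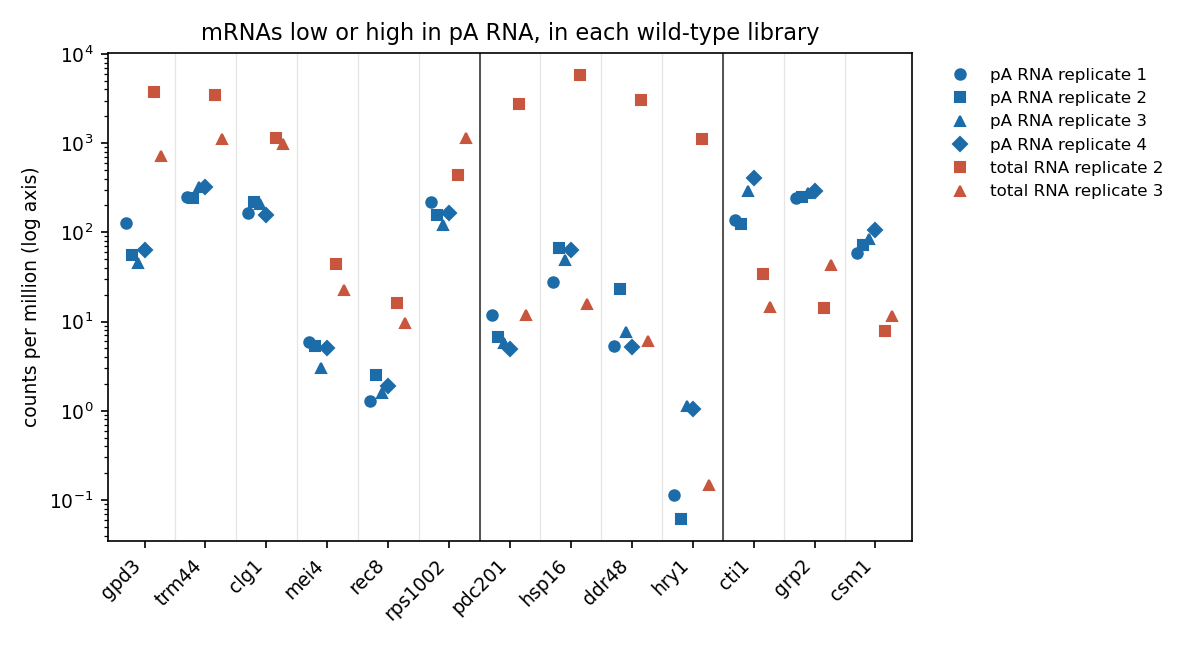
Counts per 1000000 (CPM, log axis, scaled by library size alone) of 13 mRNAs in the 4 pA RNA libraries (blue) and the 2 total RNA libraries (red), 1 point per library. From gpd3 to rps1002 both total RNA libraries lie above all pA libraries, from pdc201 to hry1 only total RNA replicate 2 does so clearly (5546 counts of pdc201, against 79 in replicate 3), and from cti1 to csm1 both total RNA libraries lie below the pA libraries.

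Transcript length and introns went with the contrast across protein-coding genes. In 5 groups of equal size by length, the median log2 fold change was 0.39, 0.26, 0.01, -0.14 and -0.35 from the shortest group (median 807 nt) to the longest (3678 nt). The numbers of genes higher in pA RNA were 34, 28, 7, 5 and 0, with no higher call in the longest group, and those lower were 43, 35, 32, 52 and 57. The medians of the shortest and longest groups were 0.48 and -0.42 without total RNA replicate 2 and 0.47 and -0.13 without replicate 3. They were 0.19 and -0.19 in caf1Δ, 0.42 and -0.49 in ago1Δ, and 0.30 and -0.41 in the libraries labelled clr4Δ. Of 2458 intron-containing genes 44 were higher and 65 lower (median 0.14), and of 2519 intronless genes 30 were higher and 154 lower (median -0.18). Within the length groups, the medians were 0.54, 0.34, 0.07, -0.03 and -0.27 for intron-containing genes and 0.03, 0.18, -0.11, -0.26 and -0.42 for intronless genes, shortest first. These are descriptions across genes, which are not replicates, and the difference in library preparation between the fractions cannot be told apart from polyadenylation here.

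**Figure D5:**
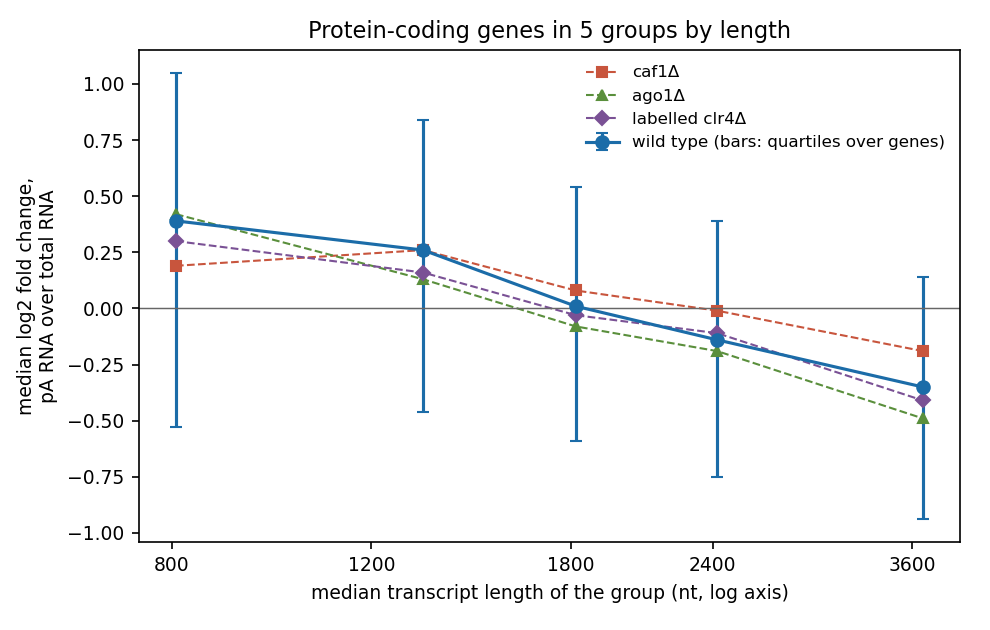
Median log2 fold change of pA RNA over total RNA (y axis) against the median transcript length (nt, log axis) of 5 groups of protein-coding genes, for wild type (blue, bars showing the quartiles over genes) and caf1Δ, ago1Δ and the libraries labelled clr4Δ (dashed). In wild type the medians run from 0.39 in the shortest group to -0.35 in the longest, and in each mutant the longest group is the lowest.

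The same contrast was made in caf1Δ, ago1Δ and the libraries labelled clr4Δ, which by their labels lack a deadenylase of the Ccr4–Not complex, the Argonaute of RNA interference, and the H3K9 methyltransferase. These libraries did not enter the wild-type fit, though the sign of their contrasts was part of the rule for naming features. ago1Δ libraries had at most 3.89 CPM of ago1, and caf1Δ libraries 12.8 to 62.6 of caf1, against 120 to 157 in wild-type pA RNA and 45.9 and 50.9 in wild-type total RNA. clr4 stood at 24.4 to 122 CPM in the libraries labelled clr4Δ, against 17.1 to 63.8 in wild type, and so does not show the deletion. These libraries did differ from wild type in heterochromatic features. Their share of counts was 1.04% and 1.12% in pA RNA and 0.926% and 0.653% in total RNA, against 0.0385% to 0.0947% in the wild-type libraries. In ago1Δ it was 0.707% to 0.919% in pA RNA and 0.805% and 0.493% in total RNA. ago1 itself was not read across the fractions in wild type, as strain 65 carries a tag at that gene. By genotype, 37 of 6319 features were lower in pA RNA in caf1Δ (0.586%), 56 of 6455 in ago1Δ (0.868%) and 42 of 6233 in the libraries labelled clr4Δ (0.674%). No feature was higher by edgeR, with 75, 803 and 268 at an unadjusted p under 0.05 in that direction. The median over the 5 SPSNRNA features tested was -11.91, -10.49 and -12.71 in these 3 genotypes. snoRNAs were lower in 8 of 34, 12 of 38 and 11 of 34.

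With the 13 mutant libraries in 1 fit with a genotype term, 1336 of 6519 features were lower (20.5%) and 1027 higher (15.8%) in pA RNA, 36.2% in all. All 320 wild-type lower calls tested there had the same sign and 307 were called (95.9% of the wild-type calls and 23.6% of the mutant calls). All 77 wild-type higher calls had the same sign and 63 were called (81.8% and 6.15%). All 51 features that stayed lower in wild type whichever library was left out were called lower there too, those that entered through total RNA alone included. For the latter the wild-type direction was fixed by the filter, so nothing is read from their agreement. With total RNA replicate 1 of the mutants alone, gpd3 (-0.63), ssd1 (-0.47) and mug8 (-1.23) were not called (edgeR adjusted p = 0.279, 0.263 and 0.0995). Of the protein-coding genes among the 51, SPAC17A2.10c, clg1, mei4 and trm44 were called lower there. Calls in the mutants also turned on the total RNA library: 359 features were lower (5.51%) and 66 higher (1.01%), 6.52% in all, with total RNA replicate 1 alone, and 1791 were lower (27.5%) and 2012 higher (30.9%), 58.3% in all, with replicate 2 alone. Over protein-coding genes, total RNA replicate 2 of wild type correlated with replicate 2 of the mutants at 0.915 to 0.966 (Spearman) and with their replicate 1 at 0.731 to 0.784. The 10 structured RNAs were lower in both subsets, with medians of -9.22 and -10.55. srp7 had 2.34 to 18.0 CPM in the mutants' pA libraries, against 28600 to 102000 in their total RNA. A test of the difference between wild type and each mutant in this contrast called no feature by edgeR (smallest adjusted p = 1), with 144, 128 and 28 features at an unadjusted p under 0.05 for caf1Δ, ago1Δ and the libraries labelled clr4Δ.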

How the data were processed

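The authors aligned reads with STAR 2.7.3a to the PomBase genome, removed reads on ribosomal RNA, and counted reads by strand with an extension of htseq-count in intersection-strict mode. Unique reads were counted, and reads with fewer than 16 locations in heterochromatin. The deposited values are raw counts per feature, without normalization, and an empty cell was read as 0.

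TPM was computed from the counts and the deposited transcript lengths. The count test was edgeR 4.0.16 under R 4.3.3 (quasi-likelihood, TMM, Benjamini-Hochberg), with DESeq2 1.42.0 as an alternative. The SE printed with an edgeR log2 fold change was derived from the test. It is the absolute log2 fold change divided by the square root of the F statistic. The fit was tested on simulated data. Shares of counts were compared by exact permutation tests. Alternatives changed the scaling, filter, test, libraries, strain term and replicate block. Names and coordinates come from RefSeq ASM294v3, which matched 6852 of 7018 features. The build behind the counts is not given in more detail in the sources used here, and a deposited transcript can be longer than the RefSeq gene, as for trm44. Total counts were 13303953 to 17771761 in pA RNA and 2023228 to 6703361 in total RNA.

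Features were named by rule. The rule took all SPSNRNA ids, the 3 highest and 3 lowest snoRNAs, rrk1, mrp1, srp7, ter1, sme2 and act1, up to 6 SPNCRNA and 10 protein-coding features called in each direction, and the extremes of each gene list. SPNCRNA and protein-coding features needed at least 10 TPM, no overlap of the fractions in log2 CPM (TMM-scaled counts per 1000000) and the same sign in the 3 mutants. Members and lists were chosen with earlier results of these data known.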

Additional observations from a re-analysis of the deposited data

Results flagged for a closer look

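In 5 of 95 groups of 4 pA libraries, 1 library lay far from the other 3 by Dixon's criterion, and chance gives about 1 in 20. The values were 2.51 TPM of snu3 in pA replicate 3, 9.04 TPM of SPNCRNA.515 in replicate 4, 11.9 TPM of prl26 in replicate 2, 1430 TPM of hht2 in replicate 3 and 104 TPM of hsp20 in replicate 1.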

How the results depend on the processing

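The number of calls varied with the processing more than the direction of the classes did. In wild type, 404 features were called as reported, 2292 with library size only (2038 higher in pA RNA), 1273 with DESeq2 (408 higher, 865 lower), and 0 by edgeR with a strain term (0 higher and 0 lower, with 467 at an unadjusted p under 0.05). Leaving out 1 library gave 66 to 1076 calls, 0 to 276 higher and 66 to 800 lower. In the 13 mutant libraries 425 features were called with total RNA replicate 1 only (66 higher, 359 lower) and 3803 with replicate 2 only (2012 higher, 1791 lower). That alternative was chosen after seeing the data.

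With the replicate number as a block (replicate block), 256 features were called in wild type, 35 higher and 221 lower, 1673 in ago1Δ and 82 in the libraries labelled clr4Δ. The deviations of wild-type samples with the same number correlated at 0.158 for number 2 and 0.002 for number 3. With 2 total RNA libraries, whose deviations mirror each other, these values cannot decide whether the numbers pair the samples.

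The median log2 fold change of all features was 0.76 with library size only. That of protein-coding genes was then 0.81, of heterochromatic features 0.04, of the other features 1.41 and of SPRRNA features -13.13. The SPRRNA median was -15.23 with a strain term. Without the count minimum the median was -6.43 for mitochondrial tRNA and -8.07 for tRNA genes. Leaving out 1 library gave medians of -0.08 to 0.10 for all features (0.10 without total RNA replicate 2 and 0.06 without replicate 3), -0.05 to 0.17 for protein-coding genes, -0.57 to 0.59 for SPNCRNA, -7.05 to -4.50 for SPMIT, -0.90 to -0.18 for heterochromatic features and -1.64 to 0.20 for pseudogenes.

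As shares of TPM, and in brackets with TPM from gene length, the difference of pA minus total RNA in percentage points was 40.0 (41.0) for protein-coding genes, -22.8 (-23.7) for SPNCRNA, -8.31 (-8.67) for SPSNORNA, -7.09 (-7.23) for SPSNRNA, -1.13 (-0.657) for SPMIT, -0.0915 (-0.0952) for mitochondrial tRNA, -0.389 (-0.354) for tRNA, -0.346 (-0.363) for SPRRNA and 0.0802 (0.0662) for the other features. Over the 4 genotypes it was 0.0945 (0.112) for heterochromatic features, which then passed (exact permutation adjusted p = 0.0053 and 0.00163), and 0.00673 (0.00823) for pseudogenes, against -0.00455 as a share of counts. For pseudogenes leaving out 1 wild-type library gave -0.0124 to 0.00331, with 0.00331 without total RNA replicate 2.

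By length, genes above the median of mean TPM had medians of 0.52, 0.18 and -0.01 in groups 2, 3 and 4 from the shortest. Leaving out 1 library gave 0.28 to 0.48, 0.25 to 0.41, -0.03 to 0.18, -0.18 to 0.06 and -0.43 to -0.13 from the shortest group to the longest, with 0.06 in group 4 without total RNA replicate 3.

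Among 83 named genes, the log2 fold changes that changed sign were not called in either setting, hsp16 excepted. With library size only they were snR51b 0.88, act1 0.26, var1 0.22, hxk1 0.20 and bip1 0.80, and with TMM on protein-coding genes snR51b 0.03. With a strain term they were snR90 -1.26, var1 0.39 and bip1 0.12, and with the replicate block snR90 -0.28 and bip1 0.12. Without total RNA replicate 2 they were sme2 1.57, prl26 1.23, var1 1.30, hsp16 0.76 and his5 -0.22. Without replicate 3 they were snR90 -0.21, snR51b 0.85, act1 0.00, hxk1 0.08, hsp20 -0.38 and bip1 0.25. Without a pA library, snR51b was 0.07, 0.16 and 0.02 (replicates 1, 2 and 3), bip1 0.08 (replicate 1) and snR90 -0.27 (replicate 4). Leaving out 1 library moved these genes over -0.27 to 1.24 for snR90, -0.46 to 0.85 for snR51b, -1.73 to 1.57 for sme2, -1.02 to 0.00 for act1, -4.97 to 1.23 for prl26, -1.33 to 1.30 for var1, -1.14 to 0.08 for hxk1, -7.49 to 0.76 for hsp16, -0.38 to 0.80 for hsp20, -0.28 to 0.25 for bip1 and -0.22 to 1.01 for his5. The strain term ended 57 of the calls, the replicate block 11, and leaving out total RNA replicate 2 ended 31 without a change of sign and that of hsp16 with one. The cause of these changes was not tested. The depth of the total RNA libraries, 2023228 and 6703361 counts, limits snoRNAs, tRNAs and rare non-coding RNAs, such as snu4 with 2 and 0 counts.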
